A study of Homo sapiens with 8 samples.

Results

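The 37 genes described here encode the aminoacyl-tRNA synthetases of the cytosol and of mitochondria, together with the scaffold genes AIMP1 and AIMP2. They were picked by symbol out of the 62700 rows of the deposited count table, and all 37 were found there. Of these, 21 are counted as cytosolic and 16, all with names ending in 2, as mitochondrial. GARS1 and KARS1 stand among the cytosolic genes, although each of them also gives the mitochondrial enzyme for its amino acid. The data are poly-A RNA sequencing of THP-1, a cell line from a human monocytic leukaemia. In all 8 libraries the cells had been differentiated to macrophages by 50 ng/mL of PMA over 72 h and loaded with acetylated low-density lipoprotein for 48 h, which gives cholesteryl ester-filled foam cells. The 4 AF libraries had 0.5 µM auranofin, an antirheumatic gold drug whose known target is thioredoxin reductase, and the 4 DMSO libraries had vehicle. By the sample protocol each was given 24 h ahead of the lipid and then kept on, whereas the series' design text places the drug after loading. Nothing in the labels shows that libraries came from separate cultures, so a p-value here reflects library-to-library spread alone, possibly technical.

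Synthetases join each amino acid to its own tRNAs, which is the step that sets the meaning of the genetic code. The cytosolic and mitochondrial enzymes of an amino acid mostly come from separate nuclear genes, and in the cytosol some of them sit with AIMP1 and AIMP2 in a multi-synthetase complex. When amino acids run short or the endoplasmic reticulum is stressed, the transcription factor ATF4 is known to switch on many cytosolic synthetase genes through a composite site it binds with a C/EBP partner.

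Depth was 24522949 to 32325981 counts in AF libraries and 19336073 to 27278947 in DMSO libraries. AF replicate 1 stood apart: protein-coding genes held 59.3% of its counts and 91.1% to 91.5% of those of each other library, and its TMM scaling factor was 0.679 against 1.05 to 1.08 elsewhere. The part of this library's composition in the results was not tested, and values without it are given where they bear on a call. The 11 macrophage and foam cell markers were all above 1 CPM (normalised counts scaled to library size) in every library, with summed levels of 4993 to 5514 CPM in AF and 5920 to 6635 CPM in DMSO, and the part of this difference in the results was not tested. The markers did not move together: LYZ averaged 745 CPM in AF and 1430 CPM in DMSO, MSR1 and PLIN2 were also called lower, and ITGAM (0.43, adjusted p = 0.000819, edgeR) and CD14 (0.33, 0.0313) were called higher. Of 8 markers of other lineages, 3 (MS4A1, EPCAM and HBB) had 0 counts throughout and PECAM1, which myeloid cells also express, was at 296 to 323 CPM in AF and 311 to 321 CPM in DMSO. The other lineage markers summed to 0.78 to 1.69 CPM in AF and 0.992 to 1.35 CPM in DMSO.

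Because the ATF4 site is the best known common feature of these genes, RefSeq promoter windows (GRCh38.p14, 250 bases before to 50 after each annotated start) were searched for its core, TGATGNAA, on either strand. Of 18 cytosolic members with a window, 7 held it, which is 38.9%, as did 7 of 27 genes of a stress response list (25.9%), 0 of 15 partner genes of tRNA charging, and 1 of 14 mitochondrial members, YARS2, or 7.14%. Among 10473 tested protein-coding genes with a window the share was 2.82%. In 6 of the 7 cytosolic genes the letters were the same, TGATGCAA on one strand and TTGCATCA on the other, and GARS1 alone had TTTCATCA. In 6 of the 7 the site began within 50 bases of an annotated start, and in AARS1 it began 187 bases before it. A match describes letters in a window and does not show binding. Nor does a window without a match show that the gene lacks a site elsewhere. The sites are given below with 10 bases on each side, in the direction of the gene, with the match in capitals. CHAC1, a glutathione-degrading enzyme gene of the stress response, is given for comparison.
AARS1, chr16:70289676-70289703, minus strand: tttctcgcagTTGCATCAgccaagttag
CARS1, chr11:3057408-3057435, minus strand: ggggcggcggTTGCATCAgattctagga
GARS1, chr7:30594835-30594862, plus strand: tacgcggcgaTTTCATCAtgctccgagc
IARS1, chr9:92293693-92293720, minus strand: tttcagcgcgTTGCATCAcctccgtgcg
MARS1, chr12:57488054-57488081, plus strand: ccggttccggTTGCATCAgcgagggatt
NARS1, chr18:57621805-57621832, minus strand: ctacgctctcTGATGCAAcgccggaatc
TARS1, chr5:33440957-33440984, plus strand: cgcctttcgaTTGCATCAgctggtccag
YARS2, chr12:32756077-32756104, minus strand: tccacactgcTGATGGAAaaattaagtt
CHAC1, chr15:40953252-40953279, plus strand: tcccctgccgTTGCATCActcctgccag

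With auranofin the tryptophan, tyrosine and serine enzymes of the cytosol (WARS1, YARS1, SARS1) and the scaffold AIMP1 rose slightly, the valine enzyme VARS1 fell, and no mitochondrial enzyme was called. All 21 cytosolic members passed the filter on low counts and 4 were called higher and 1 lower, as were 7.62% and 7.81% of the 17535 genes tested (edgeR's quasi-likelihood test, Benjamini-Hochberg adjusted p under 0.05). Of 16 mitochondrial members 15 were tested and 0 were called in edgeR, with 1 (SARS2) at an unadjusted p under 0.05 and 0 calls in DESeq2 and in limma, which called 18.3% and 19.2% of all genes. The 5 calls among 36 members tested are 13.9%, close to the 15.4% of all genes. The median log2 fold change was 0.07 for cytosolic and -0.02 for mitochondrial members, against 0.01 for all genes tested. Cytosolic values ran from -0.45 to 0.24 and mitochondrial values from -0.44 to 0.18. The number of cytosolic members called higher was 0 without DMSO replicate 2 (4.26% of all genes were higher there), 1 without AF replicate 1 (6.82%), AF replicate 3 (4.68%) or DMSO replicate 3 (4.31%), and 2 without AF replicate 2 (6.03%). With library totals alone as the scaling it was 0 (1.04% of all genes; 183 of the 883 genes called were higher, against 1336 of 2705 with TMM), and the medians were -0.08 for cytosolic members, -0.17 for mitochondrial members and -0.14 for all genes.

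**Figure D1:**
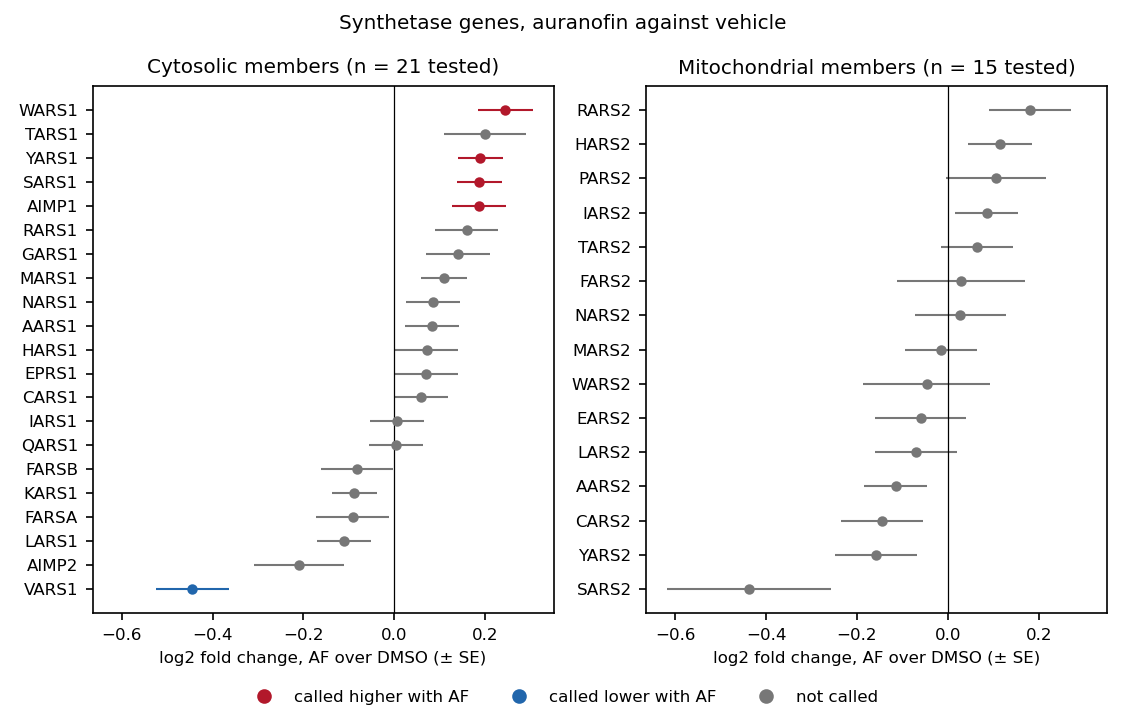
Log2 fold change (AF over DMSO, x axis) with its standard error for each tested member, cytosolic on the left and mitochondrial on the right, sorted by size. WARS1, YARS1, SARS1 and AIMP1 were called higher, VARS1 was called lower, and 31 members were not called.

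WARS1, the cytosolic tryptophanyl-tRNA synthetase and a gene known to be induced by interferon gamma, rose most among the called members. It stood at 313, 299, 298 and 312 CPM across AF replicates 1 to 4, against 266, 245, 248 and 273 CPM across DMSO replicates 1 to 4. The groups did not overlap, and within DMSO replicates 2 and 3 were the low pair. The log2 fold change was 0.24 ± 0.06 (SE; adjusted p = 0.0125, edgeR). The call was lost without DMSO replicate 2, when the value was 0.22 (adjusted p = 0.0534), and kept without AF replicate 1 (0.23, adjusted p = 0.0205). The gene spans chromosome 14 from 100333788 to 100376805 on GRCh38, and 10.6% of its exon bases are overlapped on the other strand, by WDR25 and an antisense gene. Other interferon-responsive genes did not share one direction: IRF1, an interferon-induced transcription factor gene, rose by 0.29 ± 0.08 (adjusted p = 0.0254, edgeR), while the value for GBP1 was -0.35 ± 0.14 (adjusted p = 0.095). The IRF1 call was lost without AF replicate 2 (adjusted p = 0.0651), AF replicate 3 (0.0796), DMSO replicate 1 (0.0654), DMSO replicate 2 (0.0819) or DMSO replicate 3 (0.0662), and CXCL10, at 0.078 to 0.195 CPM in AF and 0.274 to 0.553 CPM in DMSO, was too low to be tested.

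YARS1, the tyrosine enzyme, whose fragments are known to act as cytokines, stood at 203, 212, 202 and 204 CPM across AF replicates 1 to 4, against 190, 173, 175 and 181 CPM across DMSO replicates 1 to 4. SARS1, the serine enzyme, stood at 241, 234, 233 and 231 CPM in AF and 214, 203, 211 and 197 CPM in DMSO, in the same order. AIMP1, a scaffold of the complex that is also the precursor of the cytokine EMAP II, stood at 62.3, 60.8, 63.7 and 70.6 CPM in AF and 55.9, 56.8, 55.5 and 58.1 CPM in DMSO. In none of the 3 genes did the groups overlap, and AIMP1 was highest in AF replicate 4. Their log2 fold changes were alike in size, 0.19 ± 0.05 for YARS1 (adjusted p = 0.0226), 0.19 ± 0.05 for SARS1 (0.027) and 0.19 ± 0.06 for AIMP1 (0.0443, edgeR). These calls lie near the threshold. That of YARS1 was lost without AF replicate 1 (0.0519), AF replicate 2 (0.0668), AF replicate 3 (0.0568), DMSO replicate 2 (0.0838) or DMSO replicate 3 (0.0782), and that of SARS1 without AF replicates 1 (0.0757), 2 (0.0569) or 3 (0.0705) or DMSO replicates 2 (0.0843), 3 (0.0550) or 4 (0.0590). AIMP1 kept its call without AF replicate 2 but lost it without AF replicates 1 (0.0865), 3 (0.109) or 4 (0.0834) and without any of DMSO replicates 1 to 4 (0.103, 0.104, 0.126 and 0.0520). With no filter on low counts, adjusted p was 0.0550 for YARS1, 0.0620 for SARS1 and 0.113 for AIMP1. Replicates 1 and 2 of each group share the stem of their library name, as do replicates 3 and 4. With libraries summed by stem, adjusted p was 0.0818, 0.108 and 0.0816 in the same order (edgeR), while WARS1 and VARS1 stayed called. Limma's voom, with a correlation within stems, gave 0.0504 for AIMP1. On the other strand TBCK overlaps 11.6% of the exon bases of AIMP1.

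VARS1, the valine enzyme, which is known to associate with the elongation factor complex eEF1, moved the other way and had the largest change of the called members. It stood at 110, 97.8, 92.6 and 85.6 CPM across AF replicates 1 to 4, against 128, 147, 136 and 114 CPM across DMSO replicates 1 to 4. Every AF library lay below every DMSO library, with AF replicate 1 and DMSO replicate 4 closest to each other. The log2 fold change was -0.45 ± 0.08 (adjusted p = 0.00244, edgeR), and it stayed called whichever single library was left out, at -0.38 to -0.52. The gene spans chromosome 6 from 31777518 to 31795953, on the minus strand. Of the eEF1 genes fixed as partners, EEF1B2 also fell, with 320, 305, 294 and 334 CPM across AF replicates 1 to 4 and 351, 399, 406 and 339 CPM across DMSO replicates 1 to 4. Its log2 fold change was -0.25 ± 0.07 (adjusted p = 0.0324, edgeR), and the groups did not overlap. That call was lost without AF replicate 2 (0.0704), AF replicate 3 (0.108), DMSO replicate 2 (0.106) or DMSO replicate 3 (0.103). EEF1A1 and EEF1D had values of 0.09 ± 0.08 and -0.03 ± 0.08, and EEF1G was listed at 0 in every library.

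**Figure D2:**
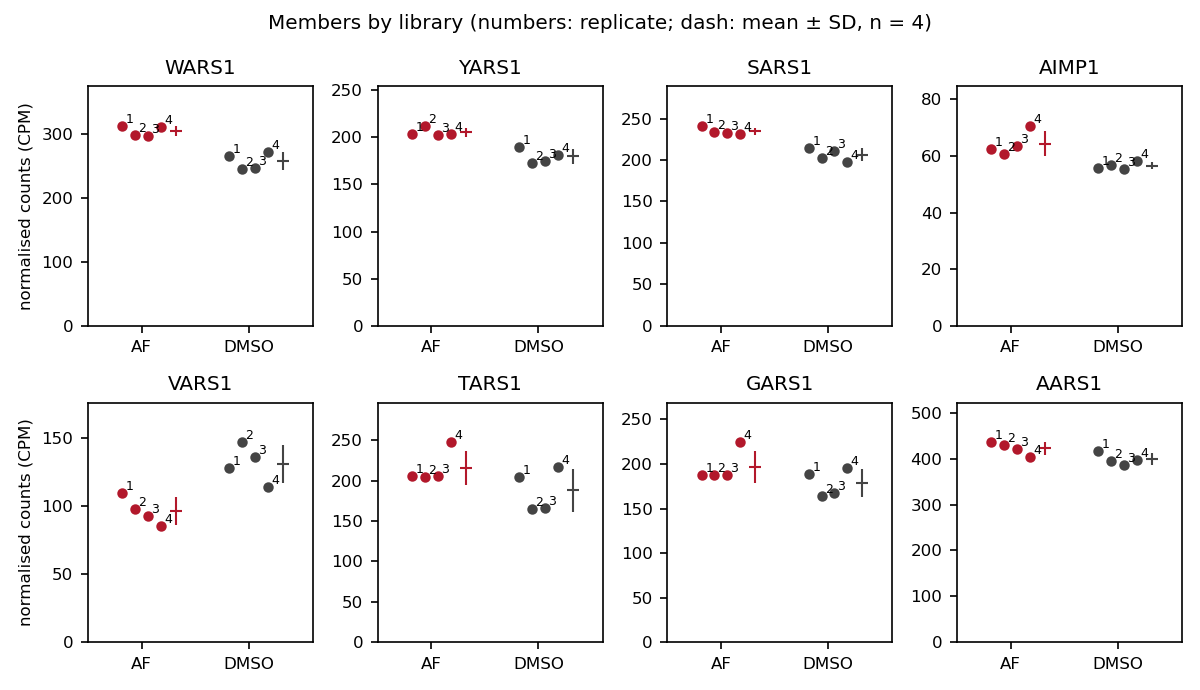
Normalised counts (CPM, y axis from 0) of 8 cytosolic members in each AF library, left, and each DMSO library, right, with the replicate number beside each point and the mean ± SD (n = 4) as a dash. WARS1, YARS1, SARS1, AIMP1 and VARS1 have groups that do not overlap. TARS1 and GARS1 are high in AF replicate 4 and, within DMSO, in replicates 1 and 4.

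The multi-synthetase complex holds 9 of the members, and AIMP1 was the 1 called among them. Its bifunctional enzyme EPRS1, which charges glutamate and proline tRNAs, stood at 613, 580, 612 and 666 CPM across AF replicates 1 to 4, against 594, 561, 576 and 624 CPM across DMSO replicates 1 to 4, and the groups overlapped (0.07 ± 0.07, adjusted p = 0.543). The second scaffold, AIMP2, was at -0.21 ± 0.10 on the log2 scale (adjusted p = 0.188), opposite in sign to AIMP1, although 28.9% of its exon bases overlap EIF2AK1 on the other strand. MARS1, the methionine enzyme, did not overlap between groups (165 to 174 CPM in AF and 155 to 159 CPM in DMSO) but was not called (0.11 ± 0.05, adjusted p = 0.128). In MARS1 12.4% of exon bases are overlapped on the other strand, in part by DDIT3, a gene that rose by 0.80 ± 0.10, and whether the counting used strand is not given in the sources used here. KARS1, the lysine enzyme of cytosol and mitochondria, stood at 123, 131, 123 and 133 CPM across AF replicates 1 to 4 and 135, 140, 139 and 127 CPM across DMSO replicates 1 to 4 (-0.09 ± 0.05, adjusted p = 0.29). The isoleucine, leucine, glutamine and arginine enzymes IARS1, LARS1, QARS1 and RARS1 had log2 fold changes of 0.01, -0.11, 0.00 and 0.16, each with an adjusted p of at least 0.14 (edgeR).

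Of the 12 cytosolic members outside the complex, 3 rose, 1 fell and 8 were not called, which is 33.3% called, against 11.1% in the complex and 15.4% of all genes; the difference was not tested. AARS1, the alanine enzyme, stood at 435, 429, 420 and 404 CPM across AF replicates 1 to 4, against 417, 394, 386 and 397 CPM across DMSO replicates 1 to 4, so 3 of 4 AF libraries exceeded every DMSO library (0.08 ± 0.06, adjusted p = 0.396). GARS1, the glycine enzyme of both compartments, was at 188 CPM in AF replicates 1, 2 and 3 and at 224 CPM in AF replicate 4, against 189, 164, 167 and 195 CPM across DMSO replicates 1 to 4 (0.14 ± 0.07, adjusted p = 0.217). TARS1, the threonine enzyme, followed the same outline, with 206, 204, 206 and 247 CPM in AF and 204, 165, 166 and 217 CPM in DMSO (0.20 ± 0.09, adjusted p = 0.152). It was called when DMSO replicate 4 was left out (0.28, adjusted p = 0.0483) and with no filter on low counts (0.0361). A replicate block (4188 of 17535 genes called), and libraries 2 and 3 alone (29.7% of all genes), also gave a call for TARS1. The asparagine, cysteine and histidine enzymes NARS1, CARS1 and HARS1 had log2 fold changes of 0.08, 0.06 and 0.07, and the phenylalanine subunits FARSA and FARSB of -0.09 and -0.08.

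No mitochondrial member passed the test, and the intervals show how large a change the data leave room for. The 95% interval of the log2 fold change, not adjusted for the number of genes, lay within 1.5-fold in either direction for 14 of 15 mitochondrial and 20 of 21 cytosolic members, SARS2 and VARS1 being the exceptions. SARS2, the mitochondrial serine enzyme, had the lowest counts of the tested members (35 to 99). It stood at 1.86, 2.94, 2.54 and 2.22 CPM across AF replicates 1 to 4, against 3.35, 3.84, 2.64 and 3.27 CPM across DMSO replicates 1 to 4 (-0.44 ± 0.18, adjusted p = 0.11, interval -0.82 to -0.06). A gene with no symbol in the annotation covers 46.2% of its exon bases on the same strand, so its counts are uncertain. HARS2, the mitochondrial histidine enzyme, stood at 40.6, 41.5, 41.5 and 41.6 CPM across AF replicates 1 to 4 and 37.2, 37.1, 38.2 and 40.4 CPM across DMSO replicates 1 to 4, with no overlap and no call (0.11 ± 0.07, adjusted p = 0.278). RARS2, the arginine enzyme, had the largest positive value of the class (0.18 ± 0.09, adjusted p = 0.211). WARS2, the tryptophan enzyme, stood at 8.54, 6.85, 10.5 and 11.3 CPM across AF replicates 1 to 4 and 9.61, 10.9, 9.19 and 8.74 CPM across DMSO replicates 1 to 4 (-0.05 ± 0.14). VARS2 was listed at 0 in all 8 libraries, and nothing is read from this, since EEF1G, a gene that all cells use, is listed at 0 as well. The groups did not overlap in 6 of the 36 tested members with AF higher and in 1 with AF lower, against 9.86% and 9.68% of all genes tested.

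Summed over the class, cytosolic members made up 3853, 3748, 3785 and 3994 CPM across AF replicates 1 to 4, against 3715, 3591, 3587 and 3744 CPM across DMSO replicates 1 to 4. Every AF library was above every DMSO library on this scale, by little in the closest pair, and the means stood in a ratio of 1.05. Per length and scaled to protein-coding genes, the sums were 3140, 3018, 3145 and 3326 in AF and 3160, 2961, 2909 and 3223 in DMSO, which overlapped, at a ratio of 1.03. With library totals alone AF replicate 1 was at 2614 CPM and the ratio was 0.947. Mitochondrial members summed to 505.5, 510.1, 522.5 and 553.9 CPM in AF and 516.7, 514.1, 511.8 and 508.5 CPM in DMSO, which overlapped, at a ratio of 1.02. In bulk samples fewer cells and less RNA per cell cannot be told apart.

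Within an amino acid, both enzymes were set side by side in 14 pairs covering 13 amino acids, and the log2 fold changes had the same sign in 6. EPRS1 (0.07), which serves both glutamate and proline, was not paired with EARS2 (-0.06) or PARS2 (0.11), so the counts of pairs leave these out. The pair with the largest called member was tryptophan, with 0.24 for WARS1 and -0.05 for WARS2. Tyrosine had 0.19 for YARS1 and -0.16 for YARS2, whose adjusted p was 0.248, and serine 0.19 for SARS1 and -0.44 for SARS2. Histidine (0.07 for HARS1 and 0.11 for HARS2) and arginine (0.16 for RARS1 and 0.18 for RARS2) lay close together. The cytosolic value was above the mitochondrial one in 8 of the 14 pairs. The differences within pairs were not tested.

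Levels were compared between genes as counts per kilobase of exon, scaled to the same total over protein-coding genes in each library (TPM). Among tested members the median was 104 in AF and 105 in DMSO for cytosolic genes and 18 in AF and 19.3 in DMSO for mitochondrial genes. EPRS1 was the highest cytosolic member (473 ± 34.1 in AF and 460 ± 34.9 in DMSO, SD, n = 4 each) and HARS1 the lowest (24.4 ± 0.582 and 23.6 ± 1.11). IARS2 was the highest mitochondrial member (208 ± 23.0 in AF and 199 ± 10.2 in DMSO) and SARS2 the lowest tested (3.08 ± 0.570 and 4.31 ± 0.677). In DMSO the cytosolic enzyme had the higher level in 12 of the 14 pairs, from 1.28-fold for arginine to 53.0-fold for serine. For histidine and isoleucine the mitochondrial enzyme was higher, and the ratios of cytosolic to mitochondrial level were 0.527 and 0.759 in AF and 0.542 and 0.803 in DMSO. These lengths take in every annotated exon, so single ratios depend on the annotation.

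**Figure D3:**
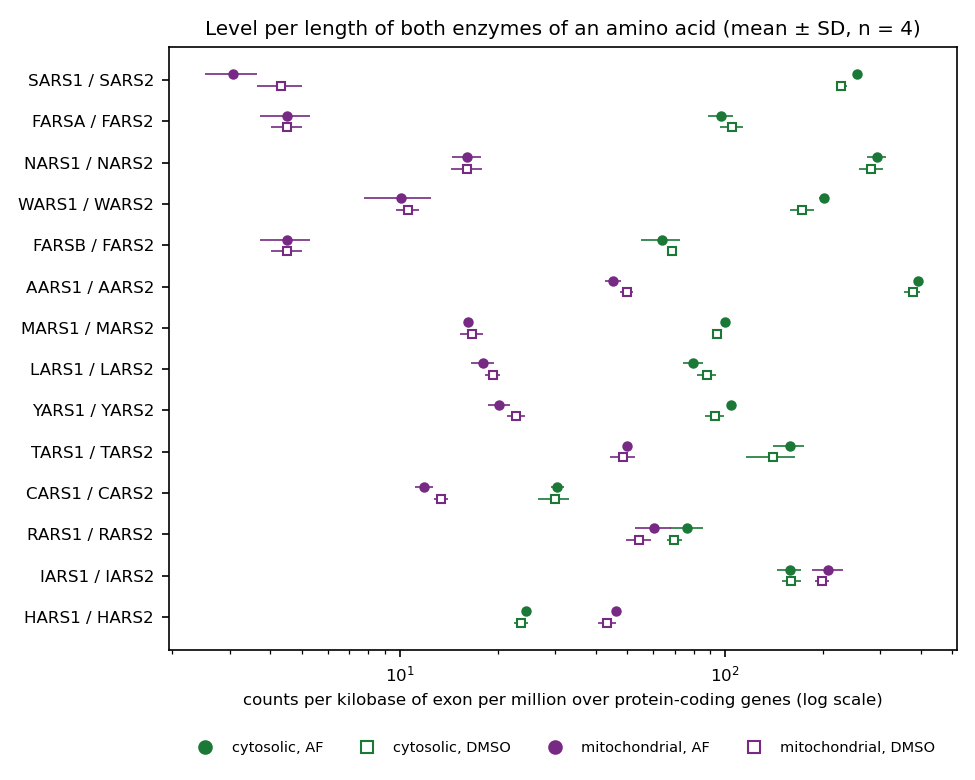
Level per length (TPM over protein-coding genes, log scale) of the cytosolic and mitochondrial enzyme in each pair compared, as mean ± SD over 4 libraries. EPRS1 is not among the pairs. Filled circles are AF and open squares DMSO, cytosolic in green and mitochondrial in purple. The cytosolic enzyme is higher except for histidine and isoleucine, and AF and DMSO lie close together beside the distance between the enzymes.

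Cytosolic members with and without the ATF4 core had medians close together, and the difference was not tested. Of the 7 with the site shown above, 0 were called by edgeR, where 15.4% of all genes were, with log2 fold changes of 0.01 (IARS1) to 0.20 (TARS1), all positive, and a median of 0.08. At an unadjusted p under 0.05 there were 2, MARS1 and TARS1. DESeq2 and limma also called 0. TARS1 was called with no filter on low counts (3125 of 36234 genes called) and with a replicate block (4188 of 17535). It was also called without DMSO replicate 4 (2678 of 18066) and in libraries 2 and 3 alone (29.7% of all genes). GARS1 was called with libraries 2 and 3 alone, a grouping chosen with earlier results of these data known. Among the 11 with a window and no site, 3 were called higher (WARS1, SARS1 and AIMP1), against 7.62% of all genes, and the median was 0.07. LARS1, VARS1 and YARS1 had no window in the table. With library totals alone, where the median of all genes was -0.14, the 7 values ran from -0.14 (IARS1) to 0.05 (TARS1). The list of 34 stress response genes, all tested, had 11 called higher and 0 lower, against 7.62% and 7.81% of all genes tested, with a median of 0.16 and a highest value of 1.14. Among its genes with the core in a window, CHAC1 (0.71 ± 0.17, adjusted p = 0.0102, edgeR), ATF3 (1.14 ± 0.16, 0.000336) and SLC3A2 (0.34 ± 0.10, 0.0277) were called higher. ASNS, SLC7A1, SLC1A5 and CEBPG also hold the core and were not called. With a window and no core, ATF4, DDIT3, TRIB3, SESN2, DDIT4, PPP1R15A and VLDLR were called higher too. PSAT1, PHGDH, MTHFD2, SLC7A5, SLC38A2, CEBPB, PCK2, ALDH18A1, STC2, EIF2AK2, EIF2AK3, EIF2AK4 and GCN1, also without the core, were not called. SLC7A11, called higher, had no window. The part of the core in these values was not tested. With library totals alone the list had 3 higher, against 1.04% of all genes.

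ATF4 itself stood at 573, 583, 534 and 535 CPM across AF replicates 1 to 4, against 493, 448, 434 and 445 CPM across DMSO replicates 1 to 4, with no overlap (0.29 ± 0.07, adjusted p = 0.0102, edgeR). ATF3, a stress-induced transcription factor gene with the largest value of the list, stood at 65.1, 47.2, 51.6 and 65.7 CPM in AF and 34.1, 19.8, 19.6 and 30.3 CPM in DMSO. In DMSO it was higher in replicates 1 and 4 than in 2 and 3, the outline also seen in TARS1 and GARS1. DDIT4, DDIT3 and PPP1R15A were the other members of the list with the smallest p and rose by 0.92, 0.80 and 0.55. ASNS, the asparagine synthetase gene and a textbook ATF4 target, was at 1.22 to 1.43 CPM in AF and 0.721 to 1.40 CPM in DMSO (0.44 ± 0.26, adjusted p = 0.265). The amino acid transporter genes SLC7A11 (0.60 ± 0.10, adjusted p = 0.00114, edgeR) and SLC3A2 (0.34 ± 0.10, 0.0277) were also called higher. So were TRIB3, SESN2, CHAC1 and VLDLR. With ASNS, 23 of the 34 genes were not called. Among them were the serine synthesis genes PHGDH (0.08 ± 0.06), PSAT1 (-0.03 ± 0.10) and PSPH (0.05 ± 0.11) and the amino acid transporter gene SLC7A5 (0.08 ± 0.09), chosen after their values were seen.

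**Figure D4:**
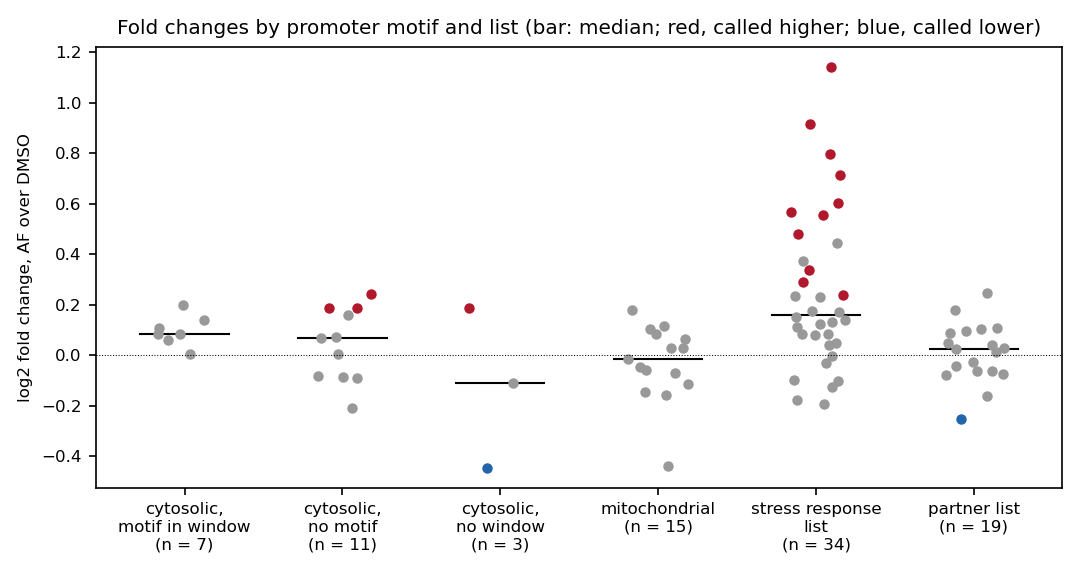
Log2 fold change (AF over DMSO, y axis) of cytosolic members with the ATF4 core in a promoter window, without it and with no window, of mitochondrial members, and of the stress response and partner lists; bars are medians, red points were called higher and blue points lower. The 7 cytosolic members with the core lie between 0.01 and 0.20 and none is called, whereas the stress response list reaches 1.14.

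The list of other genes of tRNA charging and of delivery to the ribosome gave 1 call. Of 20 partner genes 19 were tested, 0 were called higher and 1, EEF1B2, lower, which is 5.26% called against 15.4% of all genes, with a median of 0.02. EEF1E1, the third scaffold of the complex, was low at 1.2 to 1.75 CPM in AF and 0.936 to 1.55 CPM in DMSO (0.10 ± 0.23). XPOT, the exporter of tRNA from the nucleus, stood at 255, 242, 259 and 307 CPM across AF replicates 1 to 4 and 257, 226, 228 and 278 CPM across DMSO replicates 1 to 4 (0.11 ± 0.08, adjusted p = 0.428), again highest in AF replicate 4.

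By position, 11 members start within 1 kb of a protein-coding gene on the other strand (64 to 867 bases apart). HARS1 and HARS2 are such neighbours of each other on chromosome 5, with starts 436 bases apart. Of the 9 other neighbours, 1 was called, against 15.4% of all genes: TERF2IP, a telomere protein gene beside KARS1, at 0.20 ± 0.05 (adjusted p = 0.0236, edgeR), while KARS1 was at -0.09 ± 0.05. WDR25, beside WARS1, had 0.35 ± 0.12 (adjusted p = 0.0669), and MRPS12, a mitochondrial ribosomal protein gene beside SARS2, had -0.29 ± 0.13 (0.144).

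The number of calls depended on which replicate numbers entered, a grouping taken from an earlier look at these data that the labels do not name. In libraries 2 and 3 alone 5 cytosolic members were called higher (GARS1, SARS1, TARS1, WARS1 and YARS1) and 3 lower (AIMP2, FARSB and VARS1), where 29.7% of all genes were called, 14.7% higher and 15.0% lower. In libraries 1 and 4 alone, which include AF replicate 1, 0 members and 1.2% of all genes were called. TARS1 had a log2 fold change of 0.10 in libraries 1 and 4 and 0.31 in libraries 2 and 3, and VARS1 of -0.31 and -0.57. WARS1 (0.21 and 0.28) and SARS1 (0.20 and 0.18) differed less between the divisions. Mitochondrial members had 0 calls in either. The difference between the divisions was not tested.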

How the data were processed

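The authors deposited raw gene-level counts, 1 column a library. Per the submitters' processing notes the tools were STAR 2.6.1d and featureCounts (Subread 1.6.3) on GRCh38; annotation, strandedness and handling of multi-mapped reads were not stated in the labels. Columns were matched to libraries by title. Counts were tested two-sided by quasi-likelihood (glmQLFit and glmQLFTest of edgeR 4.0.16, R 4.3.3) after filterByExpr and TMM scaling, over all 8 libraries with no block, and p-values were Benjamini-Hochberg adjusted over the 17535 genes tested. Standard errors are |log2 fold change| over the root of F. CPM use TMM-scaled library sizes. Positions, overlaps and exon lengths are from GENCODE 29.

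No libraries of a group agreed within sampling noise (lowest chi-square per degree of freedom 2.96). Each called member is named, as are AARS1, WARS1, WARS2, GARS1, KARS1, EPRS1, HARS1, HARS2 and the highest and lowest of each class whatever their result. TARS1, MARS1, RARS2 and SARS2 were described after their values were seen. Members, lists and the grouping of libraries were chosen with earlier results of these data known. The fit was tested on simulated data with 50 genes changed at each size. It recovered 4 of those changed 1.2-fold, 32 at 1.5-fold, 45 at 2-fold and 47 at 3-fold, with 6 false calls. Most changes of 1.2-fold were thus missed, so a small change left uncalled is not shown to be absent. Alternatives were DESeq2 1.42.0, limma 3.58.1 voom with a correlation within name stems (-0.0884), library totals and 2 other filters. Further ones were a replicate block, libraries summed by name stem, and subsets of libraries. What the stems stand for is not given in the sources used here. Identity between proteins was not analysed here. Some genes of the lists are not reported here by name. Intervals cover spread between libraries and counting error only.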

Additional observations from a re-analysis of the deposited data

Results flagged for a closer look

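Among 76 groups of 4 values (36 tested members and 2 class sums, in AF and in DMSO), 5 held a library that stood apart from the other 3 by Dixon's criterion, and chance alone gives about 1 in 20. The AF library of replicate 4 was the one apart in 3 of them. GARS1 stood at 224 CPM there, against 188 CPM in each of the other AF libraries. TARS1 stood at 247 CPM, against 204 to 206 CPM. FARSB, a phenylalanine enzyme subunit, stood at 61.1 CPM, against 47.5 to 48.7 CPM. HARS2 was at 40.6 CPM in AF replicate 1, against 41.5 to 41.6 CPM in the other AF libraries, a gap that is small in size. RARS1 was at 53.9 CPM in DMSO replicate 2, against 56.8 to 57.3 CPM in the other DMSO libraries. All 5 genes were uncalled between AF and DMSO in the edgeR fit of all libraries with the low-count filter and no block. TARS1 was called with no filter on low counts and with a replicate block.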

How the results depend on the processing

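Of 730 single-gene values under 17 alternatives, 626 kept their direction and side of the threshold, 53 lost the call, 7 gained it and 44 changed sign, in 20 genes, none called in either fit. Mitochondrial members had 0 calls in each direction under every alternative. Leaving out one library in turn gave 1616 to 2964 genes called, 0 to 3 cytosolic members higher, 1 to 1 lower, 0 to 1 partner genes, 9 to 12 stress response genes higher and 0 to 1 lower, and medians of 0.05 to 0.09 (cytosolic) and -0.04 to 0.01 (mitochondrial). Libraries 1 and 4 alone gave 212 genes called, 0 cytosolic members higher, 0 lower, 0 partner genes and 4 stress response genes higher. Libraries 2 and 3 alone gave 5354 genes, 3 cytosolic members lower, 3 partner genes and 22 stress response genes higher and 2 lower. Library totals alone gave 883 genes, 0 cytosolic members higher, 0 partner genes and 3 stress response genes higher, medians of -0.08 (cytosolic) and -0.17 (mitochondrial), and summed levels, AF over DMSO, of 0.947 and 0.922. Cytosolic members higher numbered 2 with no filter and 1 with libraries summed by name stem. DESeq2 and limma each called 1 stress response gene lower. The causes were not tested.

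The replicate block called 4188 of 17535 genes, against 2705 without it, so calls rose over all genes. How many of the 4188 were higher or lower is not given here. Of cytosolic members 5 were higher and 1 lower. TARS1 was among the 5 (0.21, adjusted p 0.015 against 0.152 without the block, edgeR). Of stress response genes 16 were higher and 2 lower. Deviations of same-numbered libraries correlated at 0.0937, 0.129, 0.0288 and 0.192. For numbers 1, 2 and 4 the best match was the same number in both directions, and for number 3 it was number 2. The titles share numbers, but nothing in the labels says that they pair libraries, so the block was kept as an alternative. Whether the numbers are pairs is not settled here.

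Library totals alone put the median of all genes at -0.14, against which these values are to be read. Sign changes there were AARS1 -0.07, CARS1 -0.10, EPRS1 -0.08, GARS1 -0.005, HARS1 -0.08, IARS1 -0.14, MARS1 -0.04, NARS1 -0.06, QARS1 -0.15, FARS2 -0.11, HARS2 -0.03, IARS2 -0.05, NARS2 -0.12, PARS2 -0.05 and TARS2 -0.09. In libraries 1 and 4 alone they were FARSB 0.05, AIMP2 0.05, FARS2 -0.005, NARS2 -0.02, PARS2 -0.009 and WARS2 0.12. In libraries 2 and 3 alone they were HARS1 -0.03, IARS1 -0.01, QARS1 -0.06 and MARS2 0.007. With a mean of at least 100 counts they were IARS1 -0.005 and QARS1 -0.006. Leaving out one library in turn, values ran from -0.09 to 0.003 (EARS2), -0.05 to 0.10 (FARS2), -0.04 to 0.04 (IARS1), -0.04 to 0.02 (MARS2), -0.03 to 0.08 (NARS2), -0.03 to 0.05 (QARS1), -0.004 to 0.10 (TARS2) and -0.15 to 0.08 (WARS2).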
